A study of Mus musculus with 98 samples.

Results

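In mouse totipotent blastomere-like cells (TBLC), 2586 regions carried an N6-methyladenosine (m6A) peak in both replicates after 3 days of differentiation and in no list from before it. They were chosen by position: peaks of the 2 lists of differentiated cells (diffTBLC) that shared at least 1 base on the same strand were merged, merged regions holding a peak of both lists were kept, and those touched on that strand by any peak of the 4 earlier lists were dropped. Of 21050 regions merged over all 6 lists, 8670 were such consensus regions of diffTBLC, and the 2586 new regions made up 29.8% of these. The other 6084 overlapped at least 1 earlier peak and serve below as the comparison.

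The study concerns the development of primitive endoderm, the early lineage that lines the yolk sac, and compared TBLC kept in 2MYCP medium with TBLC moved to SLM. Its 98 samples fall into 49 groups of 2 replicates, of which 3 groups are the anti-m6A immunoprecipitations (IP) used here: TBLC_Ctrl, cultured in 2MYCP; TBLC_PlaB-, after 8 hours in SLM and named in the labels for the absence of PlaB; and diffTBLC, after 3 days in SLM. The labels name no genetic change and no sort for any of the 6. Whether the loss of PlaB or the new medium goes with a difference cannot be told apart. The labels do not say whether replicates are separate cultures. The diffTBLC culture is a mixture, since elsewhere in the study both CD140+ and CD140- cells were sorted from it. In such bulk samples a region carried by a few cells and one carried weakly by many cannot be told apart.

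N6-methyladenosine is the most common internal modification of messenger RNA. A nuclear writer complex deposits it, with METTL3 as the catalytic subunit, METTL14 as its partner, WTAP as an adaptor and VIRMA as a scaffold, and FTO and ALKBH5 can remove it. Readers decide what follows for the transcript: YTHDF2 leads marked RNA to decay, while the IGF2BP proteins can protect it, and in early embryonic cells the mark is known for limiting the lifetime of transcripts of the previous state. In an m6A immunoprecipitation, RNA fragments bound by the antibody are sequenced and a peak is called where they pile up on a strand. A peak needs a transcript as well as a mark, so a new region can come, among other sources, from a newly made RNA or from a newly marked one. A signal that was present earlier but not called as a peak would also give a new region. These sources cannot be told apart here, since depth and the calling threshold are not known and the regions were not assigned to genes. Positions are those of the authors' lists in build mm39, and no annotation of that build was used here.

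The lists were of similar size, with 12297 and 10478 peaks in diffTBLC replicates 1 and 2 and between 10143 and 11117 in the 4 earlier lists. Each peak carries the authors' own score, a whole number that starts at 20 and has no stated scale. The scores are used here to describe and rank peaks within a list, and medians of different lists are not compared as levels. A ranking by the lower of the 2 replicate scores takes their numbers as comparable, which was not tested. Sequencing depth behind the peaks is not known from these files.

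Primitive endoderm genes were expressed far higher in diffTBLC than before. The transcript levels come from other libraries of the study, taken at 0 h of an actinomycin D course (14911912 to 19476028 counts per library), in CPM, each gene's count scaled to the library's own total, and TBLC_Ctrl was counted in a separate table from diffTBLC and TBLC, which was also kept in 2MYCP. No test was made on these levels. Gata6, a transcription factor that starts the primitive endoderm program, measured 105 and 111 CPM in the diffTBLC libraries, 6.01 and 7.05 in TBLC and 7.18 and 6.84 in TBLC_Ctrl. Cubn, the endocytic receptor cubilin of endoderm, measured 387 and 377 CPM in diffTBLC and between 1.68 and 4.66 in the other 4 libraries. All 10 primitive endoderm markers examined lay higher in both diffTBLC libraries than in any of those 4, as did 28% of 13073 genes with a mean of at least 1 CPM. Pluripotency genes were still expressed: Pou5f1 stood at 1720 and 1670 CPM, the 1 of 6 such genes that lay above all 4 undifferentiated libraries, while Nanog, at 213 and 222, lay below all of them with the other 4. The share of genes lying below all 4 was 35.1%. Levels of genes listed as markers of other cell types differed between the groups as well. The summed level of 6 fibroblast and feeder genes was 72.4 to 77.5 CPM in diffTBLC, 272 to 285 in TBLC and 720 to 734 in TBLC_Ctrl, that of 5 genes of the 2-cell state was 39.9 to 41.2, 66.4 to 67.6 and 207 to 211, and that of 4 trophectoderm genes was 145 to 149, 44.6 to 47.7 and 84.8 to 88.3. Of the 4 trophectoderm genes, the keratin genes Krt8 and Krt18 lay higher in both diffTBLC libraries than in all 4 others. The transcription factor genes Cdx2 and Gata3 did not. Cdx2 stood at 1.20 and 1.06 CPM in diffTBLC, 0.513 and 0.796 in TBLC and 1.68 and 1.67 in TBLC_Ctrl. Gata3 stood at 0.728 and 0.530 in diffTBLC, 0.513 and 0.796 in TBLC and 2.01 and 1.78 in TBLC_Ctrl. None of the markers was at 0. Whether these levels come from such cells, and what part such cells have in the new regions, was not tested.

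**Figure D1:**
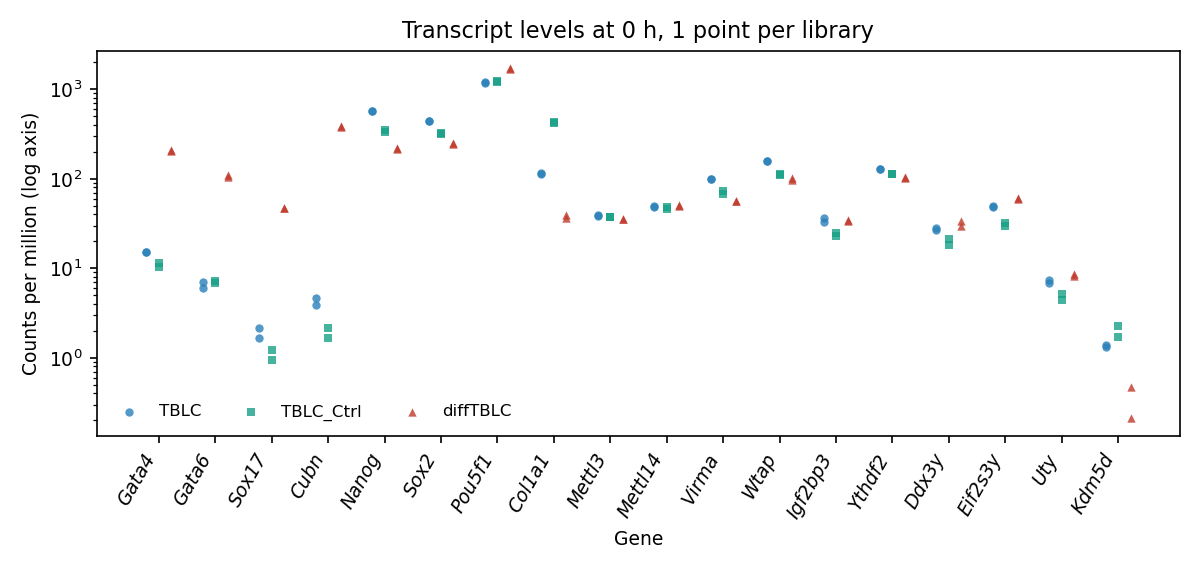
Transcript levels at 0 h in CPM (log axis) of primitive endoderm, pluripotency, fibroblast, m6A and Y-linked genes, with 1 point for each of 2 libraries of TBLC, TBLC_Ctrl and diffTBLC. Gata6 lies at 105 and 111 in diffTBLC and between 6.01 and 7.18 in the other libraries, while Mettl3 lies between 35.1 and 39.8 in all 6.

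Transcripts of the m6A machinery were present in TBLC, TBLC_Ctrl and diffTBLC, and no level is given for TBLC_PlaB-. Mettl3 measured 35.1 and 36.0 CPM in diffTBLC against 39.8 and 38.0 in TBLC and 37.8 and 37.8 in TBLC_Ctrl, and Mettl14 between 46.2 and 51.4 in all 6 libraries. Virma was at 56.5 and 56.3 CPM in diffTBLC, 99.3 and 100.1 in TBLC and 72.5 and 67.5 in TBLC_Ctrl. Of 11 writer genes, 5 lay lower and 2 higher in both diffTBLC libraries than in all 4 others, beside 35.1% and 28% of all genes. The 5 lower genes were Mettl3, Wtap, Virma, Zc3h13 and Rbm15b, and the 2 higher ones were Mettl16 and Mettl5. Neither Mettl16 nor Mettl5 is among the subunits of the writer complex named earlier in the text, and none of those subunits lay higher. The reader Igf2bp3 was at 33.6 and 34.2 CPM in diffTBLC, 32.8 and 36.4 in TBLC and 24.5 and 23.2 in TBLC_Ctrl. Ythdf2, at 102 and 103 in diffTBLC, lay below all 4 others (114 to 130). Of 10 reader genes, 2 lay lower and 2 higher in both diffTBLC libraries than in all 4 others. Of 2 eraser genes, 1 lay lower and 0 higher. The shares over all genes are those given for the writers.

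More regions separated diffTBLC from TBLC_Ctrl than separated TBLC_PlaB- from it. Of 7778 consensus regions of TBLC_PlaB-, 538 had no peak in TBLC_Ctrl (6.92%), and of 8107 consensus regions of TBLC_Ctrl, 744 had none in TBLC_PlaB- (9.18%). Against the same TBLC_Ctrl lists, 3030 of 8670 diffTBLC regions (34.9%) were without a peak. In the other direction, 2459 TBLC_Ctrl regions (30.3%) had no peak in diffTBLC. By the same rule that gave the 2586 new regions, 517 regions (6.38%) belonged to TBLC_Ctrl alone and 316 (4.06%) to TBLC_PlaB- alone. Those smaller numbers also reflect the rule, which drops from either early state what the other early state shares.

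Most diffTBLC regions were either in every earlier list or in none. An overlapping peak was present in all 4 earlier lists for 4088 regions and in none for 2586, with 608, 583 and 805 regions in 1, 2 and 3 lists. Peaks of TBLC_Ctrl alone overlapped 457 regions and peaks of TBLC_PlaB- alone 444. The new regions were not weak peaks: their median score was 192 in replicate 1 and 153 in replicate 2, against 149 and 134 for regions found in 1 earlier list and 183 and 172 for those found in all 4. Scores helped to decide whether a peak was called at all, so these values describe the regions and carry no test.

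**Figure D2:**
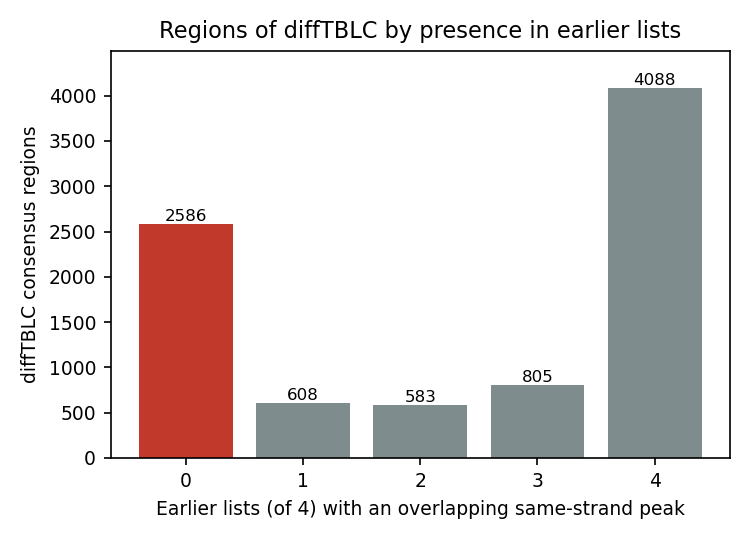
Number of diffTBLC consensus regions (vertical axis) by how many of the 4 earlier lists hold an overlapping peak on the same strand (horizontal axis). The bars for 0 lists (2586) and 4 lists (4088) stand above those for 1 to 3 lists (583 to 805).

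New regions were among the strongest of diffTBLC. Ranked by the lower of the 2 replicate scores, 6 of the 10 highest consensus regions, 31 of the highest 50 and 58 of the highest 100 had no earlier peak, beside 29.8% of all. Of the 182 regions with both scores over 500, 100 were new (54.9%), and below that the share stayed between 26.8% and 31.0% in every score class. In the same ranking of the other states, regions found there alone supplied 2 of the highest 100 in TBLC_Ctrl, beside 6.38% of all its regions, and 1 in TBLC_PlaB-, beside 4.06%. These counts and that of diffTBLC are not alike, because the rule also drops what the 2 early states share. The range of scores among the new regions was wide, from 20 to 1419 in replicate 1 and from 20 to 1252 in replicate 2, with quartiles of 121 and 322 and of 103 and 243.

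The 10 highest new regions lay on 8 chromosomes. The highest was an 870-base region on the minus strand at chr4:138230000-138230869, with scores of 1419 and 1252. It lay 376 kb from the nearest earlier peak on its strand. Next came chr6:147578759-147579064 (minus strand, scores 1032 and 1005), 504 kb from an earlier peak, and chr1:38822459-38822678 (plus strand, 987 and 909), 731 kb from one. None of these 3 had an earlier peak on its strand within 100 kb, although another new region lay 15.7 kb from the first. The region chr4:74057579-74058128 (plus strand) scored 904 and 1072 and chr2:9930685-9930953 (minus strand) 896 and 1117. The second of these is the only one of the 10 with an earlier peak within 5 kb, 4.50 kb to its 3′ side. At chr7:122811968-122812237 (minus strand) the scores were 1036 and 825. Nearly equal scores were found at chr12:4326523-4327139 (minus strand, 802 and 800), chr6:73080574-73081216 (minus strand, 797 and 835) and chr11:30273592-30274476 (minus strand, 801 and 787). The tenth, chr17:6680503-6680833 (plus strand), scored 904 and 780. Of these 10 regions, 7 lay on the minus strand, whereas the new regions as a whole were split evenly, 1305 (50.5%) on the plus strand.

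The 2 replicates ranked the new regions alike. Across the 2586 regions, which share their libraries and are not replicates, Spearman's rho between the 2 scores was 0.73 and Pearson's r of the log2 scores 0.72, beside 0.70 and 0.69 across the 6084 others. The score printed for replicate 1 was the higher number in 66.7% of new regions and in 55.6% of the others. As the scale of the score is not stated, this and the ratios that pick the regions below describe the deposited numbers, not levels of the mark. In the 2565 new regions made of a single pair of peaks, the shared stretch covered a median of 83.4% of the region. The centres lay a median of 14.5 bases apart, against 85.4% and 17 bases in the others. Some match in position was required in both sets, since only regions holding a peak of both replicates were kept. The 3 regions with the largest ratio in favour of replicate 1 were chr17:90874921-90875141 (minus strand, scores 318 and 33), chr1:75463402-75463856 (minus strand, 203 and 24) and chr1:7189019-7189346 (plus strand, 144 and 23). In the other direction they were chr8:71227630-71228033 (minus strand, 20 and 122), chr4:145563786-145564083 (plus strand, 30 and 153) and chrX:47448100-47448391 (plus strand, 37 and 186).

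**Figure D3:**
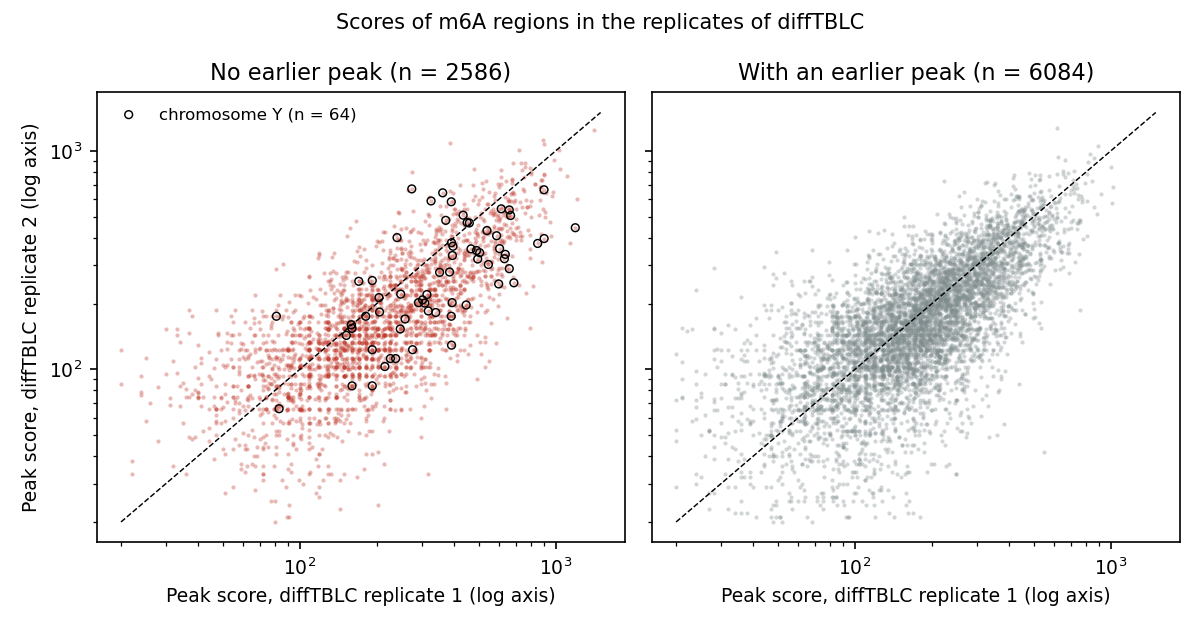
Score of each diffTBLC consensus region in replicate 1 (horizontal) and replicate 2 (vertical), both on log axes, for 2586 regions without an earlier peak (left, chromosome Y circled) and 6084 with one (right), with a dashed line of equal scores. New regions reach the highest scores of replicate 1 and lie below the line more often (66.7% against 55.6%), as do most of the 64 on chromosome Y.

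Each replicate alone held further peaks with no earlier counterpart that the rule left out. Replicate 1 had 4992 such peaks (40.6% of its list), of which 2636 overlapped a replicate 2 peak, and replicate 2 had 3442 (32.8%), of which 2623 overlapped a replicate 1 peak. The other replicate thus held 52.8% and 76.2% of the new peaks, beside 85.0% and 87.2% of the peaks that overlapped an earlier one. New peaks found in 1 replicate only scored lower, with a median of 119 in replicate 1 and 93 in replicate 2, against 192 and 153 for those found in both. At the lower edge of the kept regions lay chr1:93294556-93294730 (plus strand, scores 20 and 86), chr4:132923804-132924011 (plus strand, 80 and 20) and the chr8:71227630-71228033 region, each with a score at the lowest value of a list.

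New regions were narrow. Their median width was 251 bases, with quartiles of 200 and 339, against 348 bases and quartiles of 254 and 490 in regions with an earlier peak. The share without an earlier peak was 51.4% of the 1263 regions of up to 200 bases and 9.33% of the 954 over 600 bases. A wide region has more bases with which to touch an earlier peak, so the width is tied to the rule, and regions found in TBLC_Ctrl alone were narrow too (median 242 against 362 bases). Among regions of up to 300 bases, 53.0% of the 66 with both scores over 500 were new, against 33.8% of the 340 whose lower score was 20 to 50. In the classes between 101 and 500 the share was near-constant, at 44.5% to 45.4%. The longest new regions were a 4225-base stretch at chrY:90745947-90750171 (minus strand, scores 274 and 670), made of 4 peaks, a 2619-base region at chr7:44125981-44128599 (minus strand, 339 and 404) and one of 1370 bases at chrX:52559420-52560789 (plus strand, 181 and 153).

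New regions lay farther from the nearest earlier peak than regions with an earlier peak lay from their next one. Both sets were chosen by overlap with earlier peaks, so these distances are tied to the rule. The nearest earlier peak on the same strand was a median of 82.2 kb away, and for regions that themselves overlapped an earlier peak the next such peak was 4.28 kb away. Only 372 new regions (14.4%) had an earlier peak within 5 kb, against 51.3% of the others, and 1201 (46.4%) had none within 100 kb, against 13.4%. The regions found in another state alone had other values: 46.4% of the 517 of TBLC_Ctrl and 47.2% of the 316 of TBLC_PlaB- lay within 5 kb of a peak of the other states, with medians of 7.10 and 6.27 kb. Of the 2459 TBLC_Ctrl regions without a diffTBLC peak, 35.9% lay within 5 kb of one, and of the 3030 diffTBLC regions without a TBLC_Ctrl peak, 14.8% lay within 5 kb of one. The differences between states were not tested. Within the diffTBLC lists themselves 19.5% of new regions and 40.1% of the others had another peak within 5 kb. Whether a distant region belongs to a transcript that was marked before was not tested.

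**Figure D4:**
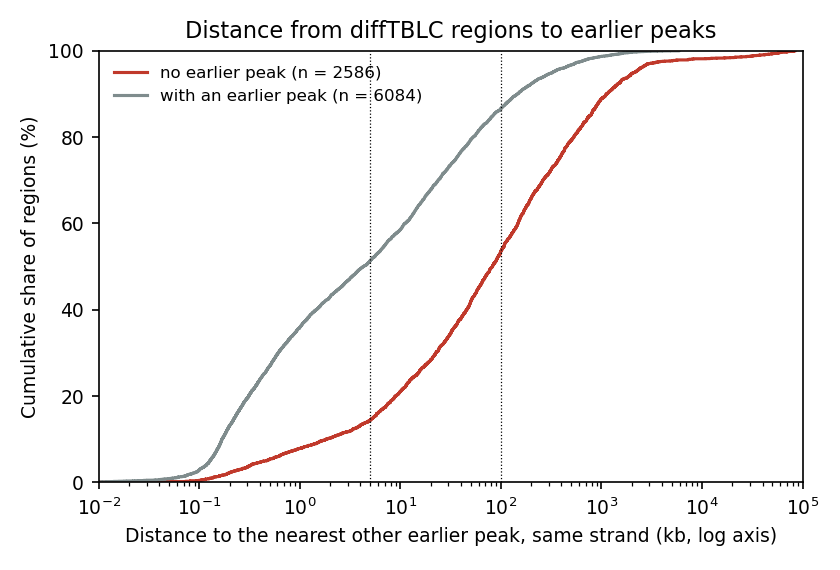
Cumulative share of diffTBLC regions (vertical axis) by distance to the nearest earlier peak on the same strand that does not overlap them (horizontal axis in kb, log scale), for regions without and with an earlier peak, with dotted lines at 5 and 100 kb. At 5 kb the curves stand at 14.4% and 51.3%.

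A smaller group lay beside earlier peaks. The 372 regions within 5 kb of an earlier peak had lower median scores (136 and 122) than the 2214 farther ones (205 and 154). The earlier peak lay on the 5′ side of the new region in 166 cases and on the 3′ side in 206. Within 1 kb the split was 101 and 103. The strongest of this group after the chr2:9930685-9930953 region were chr2:28349469-28349882 (minus strand, 869 and 594), 2.21 kb 3′ of an earlier peak, and chr2:16752786-16753248 (plus strand, 664 and 541), 2.68 kb 5′ of one. Only 12 new regions lay within 100 bases of an earlier peak. The closest, chr7:27598659-27599538 (plus strand, scores 602 and 487), starts at the base after the end of a TBLC_PlaB- peak. Just inside the rule with it were chr3:18294476-18294725 (minus strand, 297 and 101), 6 bases from an earlier peak, and chrX:152022198-152022641 (plus strand, 139 and 213), 40 bases from one. Just outside it were chr2:156859882-156860165 (minus strand, 65 and 21), which shares 4 bases with an earlier peak, chr8:34629958-34630229 (plus strand, 346 and 122), which shares 7, and chr1:89816655-89816962 (plus strand, 148 and 86), which shares 11.

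Most new regions stood apart from one another. Another new region lay within 5 kb on the same strand for 166 (6.42%), against 4.09% of the regions with an earlier peak, a difference that was not tested, and 2420 stood alone by that measure. There were 70 pairs, 4 groups of 3, 2 groups of 4 and 1 group of 6. The group of 6 spans 16.1 kb of the plus strand at chrX:52559420-52575491, with scores from 47 to 261 in replicate 1 and from 66 to 153 in replicate 2, and the nearest earlier peak on its strand lies 34.5 kb from its last region. A group of 4 spans 8.17 kb of the minus strand at chr7:44123142-44131315, with scores of 145 to 339 and 66 to 404, and here an earlier peak lies 304 bases from the closest region. No peak of any list lay within 100 kb on the strand for 856 new regions (33.1%), whose median scores of 236 and 167 were above those of all new regions.

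The other strand held an earlier peak over 136 new regions (5.26%), against 5.95% of the regions with an earlier peak on their own strand. In these the region is new only as to strand. The strongest were chr7:126797843-126798148 (plus strand, 402 and 542), chr2:84480834-84481038 (plus strand, 625 and 379) and chr1:162537969-162538314 (plus strand, 345 and 353). Leaving them out gives 2450 regions.

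Chromosome Y had the highest share of new regions of any chromosome. Of its 70 consensus regions in diffTBLC, 64 (91.4%) had no earlier peak, beside 29.8% of all regions and between 22.3% (chromosome 11) and 39.0% (chromosome 18) on the 19 autosomes. The share on chromosome X was 40.5% (87 of 215). In the lists that the rule used, chromosome Y held 121 and 80 peaks in diffTBLC, 16 and 17 in TBLC_Ctrl and 14 and 14 in TBLC_PlaB-. Peak counts of the single lists are not given here for other chromosomes. TBLC_Ctrl had 15 consensus regions on chromosome Y, 3 of them found in that state alone.

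**Figure D5:**
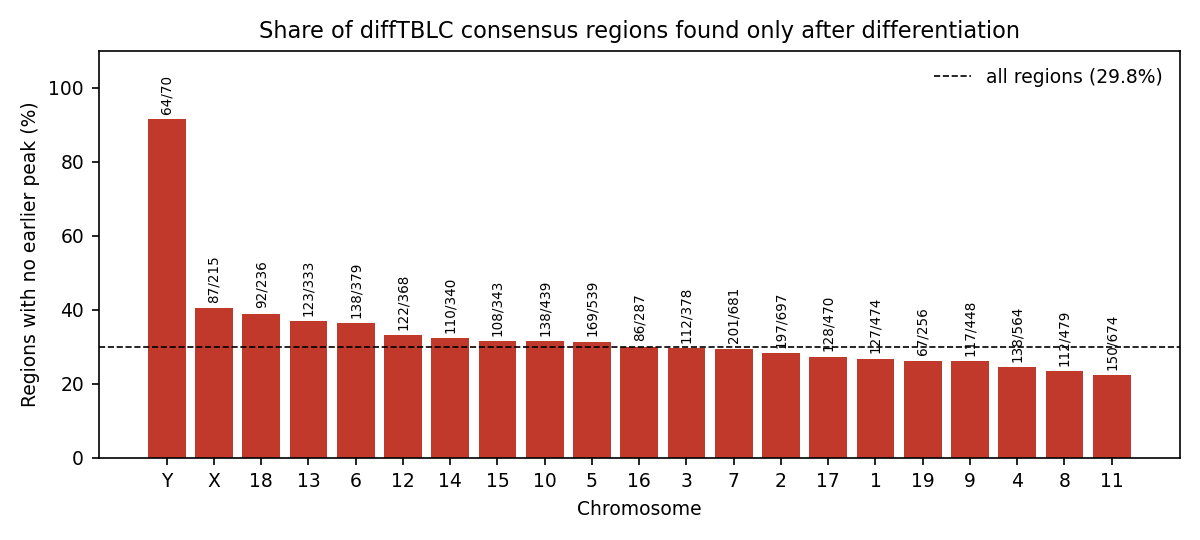
Share of diffTBLC consensus regions with no earlier peak (vertical axis, percent) on each chromosome, with the new and all consensus regions written above each bar and a dashed line at the share over all chromosomes (29.8%). Chromosome Y stands at 91.4% and the other chromosomes between 22.3% and 40.5%.

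The 64 regions of chromosome Y had higher scores than new regions elsewhere. Their median was 379 in replicate 1 and 267 in replicate 2, against 192 and 150 on the other chromosomes, and the scores ran from 81 to 1194 and from 66 to 670. Replicate 1 was the higher in 50 of 64. They were spread from 0.177 to 90.8 Mb along the chromosome, 27 on the plus and 37 on the minus strand, with a median of 893 kb between neighbouring centres. Only 1 lay within 5 kb of an earlier peak. The strongest by the lower score were chrY:8556768-8556987 (minus strand, 901 and 664), chrY:45492949-45493148 (plus strand, 613 and 543) and chrY:33767939-33768167 (plus strand, 659 and 537), each of 200 to 229 bases. The long arm of the mouse Y consists largely of near-identical repeated units, and how reads that match many copies were assigned is not given in the sources used here.

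Of 4 Y-linked genes, 3 had higher transcript levels in both diffTBLC libraries than in all 4 others. The remaining gene, Kdm5d, lay lower, but its level was low throughout, at most 2.28 CPM in any library. Of 13073 genes with a mean of at least 1 CPM, 28% lay higher in this way and 35.1% lower. The RNA helicase gene Ddx3y measured 29.8 and 33.5 CPM in diffTBLC, 27.1 and 28.2 in TBLC and 21.0 and 18.3 in TBLC_Ctrl. Eif2s3y, a translation initiation factor gene, was at 60.9 and 60.2 CPM, against 49.7 and 48.0 and against 32.1 and 29.6. Uty measured 8.26 and 8.64 CPM against 4.43 to 7.33. Kdm5d, which encodes a histone demethylase, was lower in diffTBLC, at 0.468 and 0.212 CPM against 1.31 to 2.28. These 4 genes were chosen after the regions had been seen, and their part in the chromosome Y regions was not tested.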

How the data were processed

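The m6A data are 6 peak lists that the authors deposited, 1 for each IP replicate of TBLC_Ctrl, TBLC_PlaB- and diffTBLC, with coordinates, strand and a score for each peak. Build mm39 and the tools STAR 2.7.11b, FastQC 0.12.1, Subread, DESeq2 and Trim Galore stand in the submitters' processing notes. The peak caller, its threshold, the scale of the score and the depth are not given in the sources used here, and the matching input libraries were not analysed here. Only 25.3% of diffTBLC peak centres fell in same-strand genes of a GRCm38 table (26.9% after a shift of 100 kb), so that table was not used for positions, and no sequences are given.

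Starts are printed 1-based. Regions were merged and compared in Python 3.11.15 with pandas 2.3.3. The code was tested on simulated lists and checked against bedtools 2.31.1, which gave the same count of 2586. A region's score is its highest peak score in that replicate. Distances are between region edges. No statistical test was made, since presence of a peak chose the regions, and the 2 replicates per state are the only measure of error.

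Gene levels are CPM from the raw counts the authors deposited, in 6 libraries at 0 h. In 1 table, 8 columns match no sample label and were not used, so no level is given for TBLC_PlaB-.

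Regions are named by rank: the 10 highest by the lower score, and 3 each for the longest, the most unequal, the lowest and those at either side of the rule, plus the largest groups, of which 1 is given by size only. Regions named for chromosome Y, for the other strand and for lying near an earlier peak were chosen after the data were seen. The members, gene lists and rules were set with earlier results of these data known. Alternatives were other overlaps, distances and score minimums, and leaving out each list. Tests of the genes in the regions were planned and not run, because the regions were not assigned to genes.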

Additional observations from a re-analysis of the deposited data

How the results depend on the processing

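Over 17 alternatives the count of new regions ran from 1822 (score of at least 100 in diffTBLC) to 4992 and their share from 27.5% to 40.6%. Leaving out 1 list at a time gave 2712 to 4992 regions, shares of 31.3% to 40.6%, median scores of 146 to 192 in replicate 1 and 132 to 153 in replicate 2, and median widths of 194 to 253 bases. The highest count came without diffTBLC replicate 2, where a peak of replicate 1 alone is enough. The share moved by more than the spread between replicates to 38.0% when an overlap had to cover at least 50% of each peak and to 39.8% when an earlier peak counted only if both replicates of a state held one, with a median width of 258 bases. A score of at least 100 in diffTBLC gave median scores of 255 and 193 and a width of 244 bases, and a minimum of 50 there a width of 248 bases. The share near another new region was 3.36% within 1 kb and 11.7% within 20 kb, and that near an earlier peak 7.89% and 28.4%, by the distance alone. Of the chromosome Y consensus regions, 88.6% to 98.4% were new over the alternatives that include that chromosome. The share was lowest when the strand of earlier peaks was ignored. Without chromosome Y, chosen after seeing the data as was ignoring the strand of earlier peaks, 2522 regions (29.3%) remained. No paired analysis was possible because presence of a peak chose the regions and no result comes from a test. Tests of expression, Igf2bp3 and Ythdf2 RIP and siVirma in the genes of the regions were not run. Depth is not known, so absence of a peak does not show absence of the mark.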
